A study of Homo sapiens with 6 samples.

Results

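The neutrophil chemokine cluster on the long arm of human chromosome 4 was taken as the stretch from 74.58 to 75.03 Mb in hg19, 450 kb long, and its members were every H3K27ac peak that overlaps this stretch. It held 39 of the 87864 peaks in the 2 lists, 33 of the 56420 M2 peaks and 6 of the 31444 THP-1 peaks. The stretch was chosen from earlier results of these same lists, so its values are given as a description, and no test was run, since each cell type had 1 library. The 8 genes it was chosen for stand at 74.606 Mb (CXCL8), 74.702 (CXCL6), 74.735 (CXCL1), 74.847 (PF4), 74.853 (PPBP), 74.861 (CXCL5), 74.902 (CXCL3) and 74.963 Mb (CXCL2). These positions are given to the nearest kb, without saying which end of a gene they mark, and distances to a gene are distances to them. In GRCh38.p14 the promoters of CXCL8, CXCL6 and CXCL1 are on the + strand. Those of PPBP, CXCL5, CXCL3 and CXCL2 are on the - strand, where a gene starts at its higher coordinate. Distances to the positions may therefore not mean the same on both strands, and distances to the starts were not taken.

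M2 macrophages, which the labels enter as M2 also under cell line, were set against THP-1, a human monocytic leukaemia line that the labels call monocytes. Both were grown in RPMI medium with fetal bovine serum, and the labels name no further agent, nor the cells from which the macrophages were made. Chromatin was fixed with formaldehyde and immunoprecipitated for H3K27ac, an acetyl mark on histone H3 found at promoters and enhancers in use. The series holds 6 libraries, and those for YY1 and input were not analysed here. Because the lists were used without a gene annotation of their build, the labelled cell types were not checked against marker genes.

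CXC chemokines are small secreted proteins that steer leukocytes through G-protein-coupled receptors. Most members of this cluster carry the residues glutamate, leucine and arginine before the first cysteine, bind CXCR2 or CXCR1 and draw neutrophils, while PF4 lacks that motif and is stored in platelets. Monocytes and macrophages make CXCL8 and the GRO chemokines CXCL1, CXCL2 and CXCL3 after inflammatory signals, largely through NF-kB, a factor family that binds short kB sequences in the promoters.

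The promoters fall into kinds by sequence. They are shown as a description of the genes, and no peak was placed on them. RefSeq promoter sequences of GRCh38.p14, 250 bases before to 50 after each start, were matched by symbol for 7 of the 8 genes, all but PF4. Global alignment gave identities of 82.5% between CXCL1 and CXCL3, 73.8% between CXCL3 and CXCL2, 71.9% between CXCL1 and CXCL2, and 83.1% between CXCL6 and CXCL5. The CXCL8 promoter was 45.2% to 51.7% identical to the other 6, and the PPBP promoter 47.0% to 51.7%. Identity between unrelated promoters was not measured. The letters GGAATTTCC, searched on both strands and chosen after the promoters had been read, were present in 6 of the 7, all but PPBP, and in 162 of all 35116 promoters of the table (0.461%). They began 91 bases before the start in CXCL8, 89 in CXCL6, 90 in CXCL5, 78 in CXCL1 and CXCL3, and 77 in CXCL2. Stretches of 59 bases around them, in GRCh38.p14 and with these letters in capitals, read as follows.
CXCL8 (chr4:73740453-73740511, + strand): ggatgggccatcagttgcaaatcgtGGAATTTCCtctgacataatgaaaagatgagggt
CXCL1 (chr4:73869290-73869348, + strand): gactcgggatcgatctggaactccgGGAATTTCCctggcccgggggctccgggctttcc
CXCL3 (chr4:74038734-74038792, - strand): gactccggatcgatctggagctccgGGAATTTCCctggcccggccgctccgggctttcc
CXCL2 (chr4:74099239-74099297, - strand): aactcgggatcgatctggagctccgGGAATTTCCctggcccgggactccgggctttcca
CXCL6 (chr4:73836564-73836622, + strand): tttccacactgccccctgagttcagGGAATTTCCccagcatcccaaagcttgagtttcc
CXCL5 (chr4:73998734-73998792, - strand): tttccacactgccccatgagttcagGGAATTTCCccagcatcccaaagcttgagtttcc

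The GRO genes CXCL1, CXCL3 and CXCL2 share most bases on both sides of the capitals, and CXCL6 and CXCL5 share theirs, whereas the CXCL8 stretch is unlike both. The whole promoters of CXCL8, CXCL2 and CXCL6 are given, 1 of each kind that holds these letters. They were picked because each of these genes had a called peak within 2 kb of its position in 1 of the cell types.
CXCL8 (chr4:73740319-73740618, + strand): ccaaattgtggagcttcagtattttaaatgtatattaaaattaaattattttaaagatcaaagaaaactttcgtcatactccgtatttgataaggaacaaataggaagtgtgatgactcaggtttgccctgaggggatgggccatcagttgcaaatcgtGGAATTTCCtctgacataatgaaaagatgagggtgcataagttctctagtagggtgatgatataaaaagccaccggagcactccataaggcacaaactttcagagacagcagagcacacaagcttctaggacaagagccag
CXCL2 (chr4:74099146-74099445, - strand): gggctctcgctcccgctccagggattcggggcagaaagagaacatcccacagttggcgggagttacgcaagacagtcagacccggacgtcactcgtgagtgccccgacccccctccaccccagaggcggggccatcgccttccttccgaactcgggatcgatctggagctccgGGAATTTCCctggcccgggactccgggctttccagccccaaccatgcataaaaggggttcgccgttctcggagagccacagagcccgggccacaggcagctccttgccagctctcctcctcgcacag
CXCL6 (chr4:73836428-73836727, + strand): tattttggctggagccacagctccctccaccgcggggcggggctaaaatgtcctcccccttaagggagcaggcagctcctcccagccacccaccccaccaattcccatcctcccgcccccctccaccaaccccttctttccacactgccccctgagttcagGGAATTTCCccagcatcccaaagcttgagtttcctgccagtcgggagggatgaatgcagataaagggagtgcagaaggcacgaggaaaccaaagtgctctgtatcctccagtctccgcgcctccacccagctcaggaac

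Other letters were in fewer of them. GGAATTTCC had been chosen after these promoters were read, so the counts are not a like comparison. The AP-1-like TGANTCA was in 1 of the 7 promoters, CXCL8, and in 7.71% of all promoters, and the C/EBP-like TTGCNNAA was in 2, PPBP and CXCL2, and in 10.5% of all. The CXCL8 promoter holds ttgcaaat, which differs from the C/EBP-like letters only in its last letter. Near matches were not counted in any promoter. The YY1-like GCCATNTT, added because the series also profiled YY1, was in 0 of the 7 and in 6.58% of all. A match or its absence describes these letters and no binding. The peak coordinates below are in hg19, so the sequences were not laid over them.

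H3K27ac peaks covered far more of the cluster in M2 cells than in THP-1 cells. The 33 M2 peaks covered 50.4 kb, or 11.2% of the stretch, and the 6 THP-1 peaks covered 3.69 kb, or 0.819%. The ratio of covered length, M2 over THP-1, was 13.7, against 2.19 over the whole lists. A ratio of at least 2 was found in 59.7% of the 5335 windows of the same length that held a peak. Of the M2 peaks 32 of 33 overlapped no THP-1 peak, where the share over the whole M2 list was 63.0%. Of the THP-1 peaks 2 of 6 overlapped no M2 peak, where the share over the whole THP-1 list was 24.7%. The shared M2 share was 3.03%, against 37.0% over the whole M2 list.

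**Figure D1:**
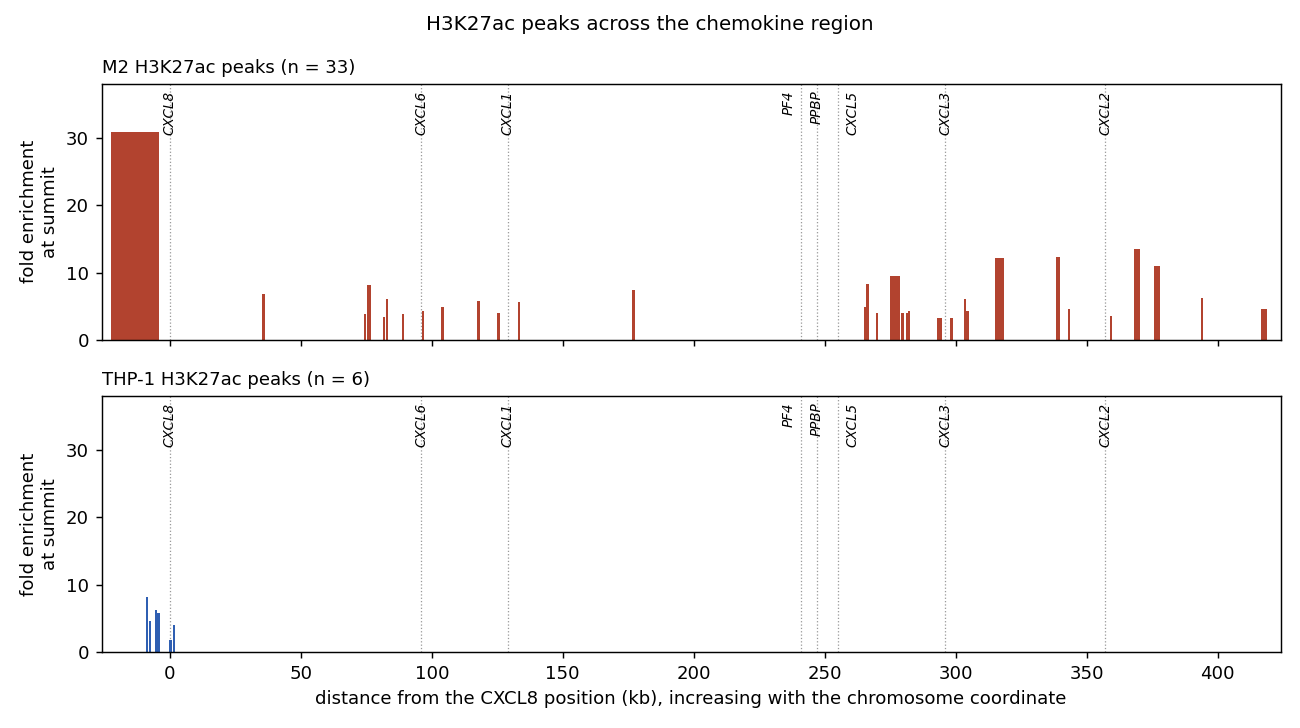
Fold enrichment at the summit (y axis) of each H3K27ac peak in the 450 kb stretch against its distance in kb from the CXCL8 position (x axis), for the M2 list above and the THP-1 list below. Bars span the peaks, drawn at least 0.9 kb wide so that they can be seen, and dotted lines mark the gene positions; the 6 THP-1 peaks all lie next to CXCL8 while the 33 M2 peaks reach across the stretch.

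The extent of the contrast depended on the bounds. The nearest peaks below the stretch were shared, an M2 peak of 8.92-fold and a THP-1 peak of 13.7-fold, 5.35 and 5.21 kb away. Above it, a shared pair of 16.8-fold in M2 and 4.93-fold in THP-1 cells lay 41.7 and 41.8 kb away. With the stretch widened by 20 kb on each side the counts came to 35 M2 peaks against 10 THP-1 peaks and the covered-length ratio to 7.22.

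All THP-1 peaks of the cluster lay at CXCL8, the gene of interleukin-8, and so did the largest M2 peak. That M2 peak ran from 74583478 to 74601981, 18.5 kb, and ended 4.02 kb below the CXCL8 position. It was the 3rd widest of the 56420 M2 peaks, 36th by fold enrichment at 30.8-fold and 162nd by -log10 q at 165. It alone made up 36.7% of the M2 covered length, and without it the ratio of covered length was 8.66. Fold enrichment is the caller's value at the summit over the local background; the sources used here do not say which library set that background. A higher -log10 q stands for a lower false discovery rate of the peak.

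Inside this M2 peak lay 4 separate THP-1 peaks, which covered 2.56 kb or 13.8% of it. They stood at 74596911 to 74597801 (8.18-fold), 74598026 to 74598516 (4.64-fold), 74600392 to 74600973 (6.26-fold) and 74601231 to 74601827 (5.76-fold). All were in its upper part, the first beginning 13.4 kb from its lower end. The M2 summit at 74600698 fell inside the third of them, 25 bp from its summit. There the recovered pileup was 170 fragments in M2 and 35 in THP-1 cells. The M2 pileup was scaled by 0.842, and each pileup was divided by the lowest background of its list. This gave 73.9 in M2 and 19.8 in THP-1 cells, a ratio of 3.73. That background was taken to stand for genome-wide coverage, which was not tested.

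At the CXCL8 position itself peaks were called in THP-1 cells and not in M2 cells. No M2 peak lay within 4 kb of it, and the next M2 peak above the wide one came after 39.4 kb without a call. THP-1 cells had a peak over the position at 74605851 to 74606419 and another 1.05 kb above it at 74607053 to 74607608. The first had 1.75-fold enrichment and a -log10 q of 1.56, just over the lowest of the list at 1.30, and the second 3.98-fold and 8.41. The weak fold of the first went with a high local background, 13.1 times the lowest of the list, under 41 fragments. Where no peak was called a list gives neither fragments nor background, so the M2 signal at this position is not known. Among peaks with a background of 10 to 15 times the lowest of their list, the fewest fragments behind a call were 47 in M2 and 34 in THP-1 cells. Whether this bears on the missing M2 call was not tested.

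**Figure D2:**
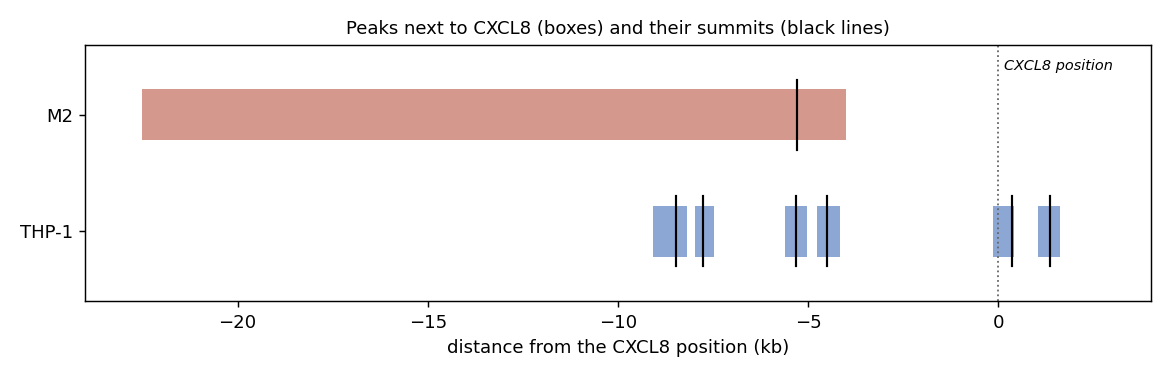
Extent (boxes) and summits (black lines) of the M2 peak and the 6 THP-1 peaks next to CXCL8, against the distance in kb from the CXCL8 position (x axis). The 18.5 kb M2 peak holds 4 THP-1 peaks in its upper part, and the 2 THP-1 peaks at the dotted line have no M2 peak over them.

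Beyond CXCL8 the cluster had M2 peaks only. The last THP-1 peak ended at 74607608 and the next began at 75071826, a gap of 464 kb with 32 M2 peaks inside that covered 32.1 kb. Of 31421 gaps between neighbouring THP-1 peaks in the genome 3, this one included, held at least 32 M2 peaks. The 1312 gaps at least as long had a median of 3 M2 peaks, and 2 of them, this one included, held at least 32. At local backgrounds of 1 to 1.5 times the THP-1 minimum, the fewest fragments behind a THP-1 call were 8, so weaker signal would not be in the list.

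The GRO genes, whose products are close relatives and bind CXCR2, had M2 peaks within 5 kb of all 3 positions and THP-1 peaks near none. CXCL3 had 3 M2 peaks within 5 kb, at 74898726 to 74899334 (3.25-fold), 74899788 to 74900190 (3.27-fold) and 74903783 to 74905088 (3.22-fold, -log10 q 13.7). Together they covered 2.32 kb of the window. CXCL2 had 1 M2 peak, at 74964847 to 74965504, with 3.55-fold enrichment and a -log10 q of 20.7, beginning 1.85 kb above its position. CXCL1 had 2, at 74731023 to 74731569 (3.97-fold, -log10 q 4.21) and 74738826 to 74739209 (5.58-fold, -log10 q 13.5). They lay 3.43 kb below and 3.83 kb above its position, so none was within 2 kb. The nearest THP-1 peaks were 127 kb from CXCL1, 170 kb from CXCL3 and 109 kb from CXCL2. The promoters of CXCL3 and CXCL2 are on the - strand, so these genes start at their higher-coordinate ends. The M2 peaks at 74903783 and 74964847 lie above the positions of CXCL3 and CXCL2. Distances to the starts were not taken, and whether these peaks cover the starts was not tested.

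The pair CXCL6 and CXCL5, whose promoters are alike and whose products also draw neutrophils, differed in their calls. CXCL6 had an M2 peak of 4.32-fold and a -log10 q of 6.89 at 74702167 to 74702668, 0.167 kb above its position. CXCL5 had no peak within 5 kb, and its nearest M2 peak began 10.1 kb above it. The CXCL6 peak did not reach a -log10 q of 10, and at that threshold neither gene had a peak within 5 kb. The nearest THP-1 peaks were 94.4 kb from CXCL6 and 211 kb from CXCL5.

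The platelet genes had no peak of either list. PF4 encodes platelet factor 4, and PPBP the precursor of beta-thromboglobulin and of a neutrophil-activating peptide, both released from platelet granules. Their nearest M2 peaks were 24.1 kb from PF4 and 18.1 kb from PPBP, and the nearest THP-1 peaks 225 and 219 kb. Both lie, with CXCL5, in the longest stretch without an M2 call in the cluster, 87.4 kb. In all, 5 of the 8 genes had an M2 peak within 5 kb and 1 of the 8 a THP-1 peak. Over windows of this width tiled along the genome, M2 peaks were in 13.6% and THP-1 peaks in 7.86%, a background of positions and not of genes. With 2 kb in place of 5 kb, 3 genes had an M2 peak (CXCL6, CXCL3 and CXCL2) and 1 a THP-1 peak (CXCL8).

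**Figure D3:**
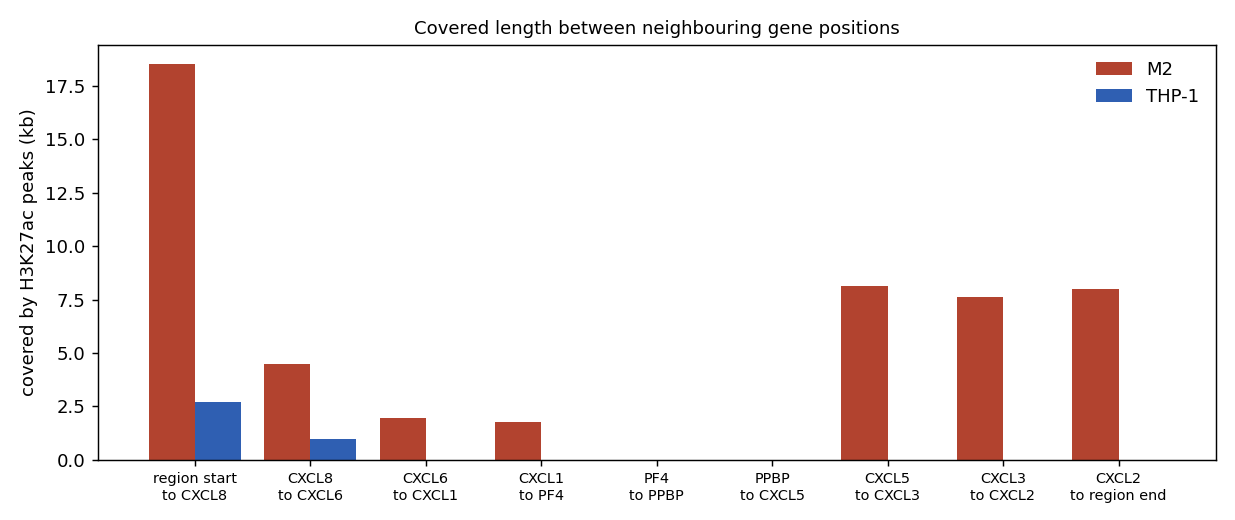
Length covered by H3K27ac peaks in kb (bar height) between neighbouring gene positions, from the lower to the upper end of the stretch, with M2 left and THP-1 right in each pair. M2 bars are highest below CXCL8 at 18.5 kb and near 8 kb in each interval above CXCL5, and the intervals from PF4 to PPBP and from PPBP to CXCL5 are empty in both lists.

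Of the M2 covered length 89.3% lay farther than 5 kb from any of the 8 gene positions. Part of it lay between these positions, part below CXCL8 and part above CXCL2. In all, with the length within 5 kb included, M2 peaks covered 18.5 kb below the CXCL8 position and 7.98 kb above that of CXCL2. Windows of 5 kb on each side of the 8 positions made up 16.4% of the stretch and held 10.7% of the M2 covered length, in 8 of the 33 peaks. They held 46.7% of the THP-1 covered length. The upper part, from CXCL5 to the end of the stretch, held 20 M2 summits and 47% of the M2 covered length.

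Of the 5 M2 peaks of highest -log10 q, 4 stood in this upper part, beside the wide peak at CXCL8. A peak between CXCL3 and CXCL2, at 74920946 to 74924360, had 12.1-fold enrichment, a -log10 q of 69.3 and 115 fragments. Above CXCL2 followed peaks at 74973905 to 74976478 (13.5-fold, 84 fragments) and 74981724 to 74983842 (37.8 in -log10 q, 64 fragments), 10.9 and 18.7 kb from its position. The last, at 75022710 to 75024987, had only 4.65-fold enrichment at 148 fragments. In the RefSeq gene order of GRCh38.p14 the next protein-coding gene above CXCL2 is MTHFD2L, and whether this peak lies at it was not tested. A further pair, picked after their values were seen, stood at 74880778 to 74884665 between CXCL5 and CXCL3 (9.57-fold, 3.89 kb wide) and at 74944301 to 74945782 between CXCL3 and CXCL2 (12.3-fold). The other M2 peaks farther than 5 kb from any of the 8 gene positions were at most 8.36-fold. In the same gene order PF4V1 also lies between CXCL8 and CXCL2, and distances to it were not taken.

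The M2 peaks nearest CXCL2 and CXCL3 had low fold enrichment for their fragments and a high local background. A single number of fragments could be solved for 31 of the 33 M2 and all 6 THP-1 peaks. The M2 peak at CXCL2 held 104 fragments and that at CXCL3 79. These were more than the 66 under the 9.57-fold peak and the 54 under the 12.3-fold peak between the gene positions. The 12.1-fold peak between CXCL3 and CXCL2 had more than both, 115. The CXCL2 and CXCL3 peaks had a background of 12.4 and 10.3 times the lowest of the list. The median was 1.35 for the M2 peaks farther than 5 kb and 2.54 over the M2 list. The peak at 75022710 had a background of 13.4 times the lowest. What raised the background at these positions was not tested. The median M2 peak of the cluster had 28 fragments (lowest 11, highest 170) and 4.92-fold enrichment, against 40 fragments and 5.42-fold over the list. A -log10 q of at least 10 was reached by 15 of the 33 M2 peaks and 3 of the 6 THP-1 peaks, and by 60.4% and 42.1% of the peaks over the whole M2 and THP-1 lists.

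**Figure D4:**
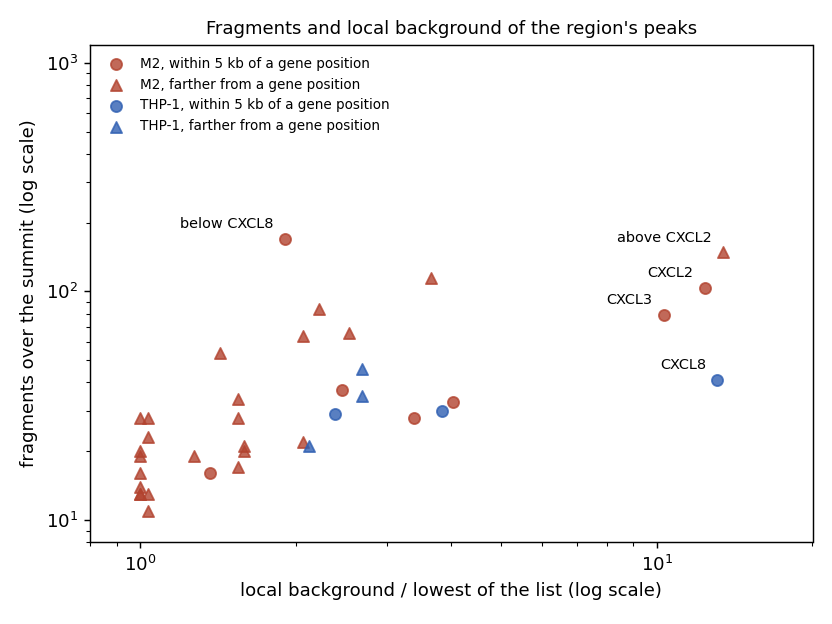
Fragments over the summit (y axis, log scale) against local background divided by the lowest of the same list (x axis, log scale) for the 31 M2 and 6 THP-1 peaks with a single solution; circles lie within 5 kb of a gene position and triangles farther. The peaks at CXCL3, CXCL2 and CXCL8 and the uppermost M2 peak stand apart at a background above 10, and the wide peak below CXCL8 has the most fragments, 170.

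Set beside the rest of the genome, the cluster was rich in M2 peaks and not in THP-1 peaks. Windows of 450 kb with a peak had a median of 8 M2 peaks covering 7.73 kb and of 4 THP-1 peaks covering 2.91 kb. At least 33 M2 peaks were found in 147 of the 5335 windows (2.76%), and at least 50.4 kb of M2 coverage in 1.07%. At most 6 THP-1 peaks were found in 66.6% of the windows. In the 147 windows as rich in M2 peaks the median was 19 THP-1 peaks, and 6 of the 147 had at most 6.

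**Figure D5:**
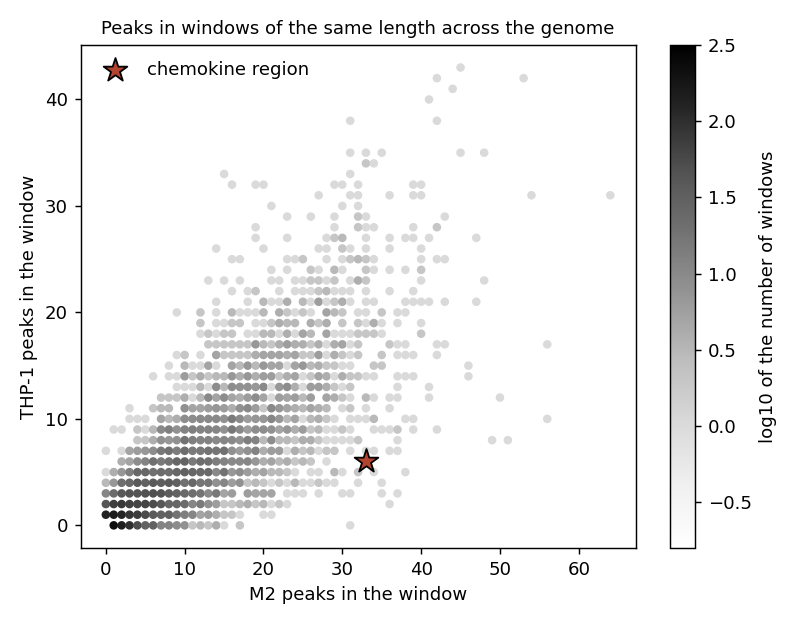
THP-1 peaks (y axis) against M2 peaks (x axis) in each window of 450 kb that held a peak, with darker points standing for more windows. The star marks the chemokine cluster at 33 M2 and 6 THP-1 peaks, below most windows with as many M2 peaks.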

How the data were processed

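Per the submitters' processing notes, Bowtie2, MACS2 version 2.1.0 and hg19 were used; its settings and control library are not given in the sources used here. Both lists, 1 per cell type, have no header and were read in narrowPeak order. The fold enrichment ratio of each peak at its summit, and its -log10 p-value and q-value, are deposited by the authors as the caller gave them. The Y chromosome was left out.

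Overlap of at least 1 bp counted as shared. Gene windows reached 5 kb to each side. Windows of 450 kb were tiled along every chromosome. Fragments and local background were solved from fold and p-value (fold as pileup plus 1 over background plus 1, Poisson p-value), with the M2 pileup scaled by 0.842. Whole fragments, within 0.02, fitted 99.997% of M2 and 99.98% of THP-1 peaks, and 97.4% and 96.5% had a single solution. The step was tested on simulated peaks. These numbers are an inference, and the authors' lists hold no counts. Python 3.11.15 with scipy 1.17.1 was used.

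The members, lists and settings were chosen with earlier results of these data known. All 8 genes are described, with every peak within 5 kb and the 5 peaks per list of highest -log10 q. Motif letters were searched on both strands.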

Additional observations from a re-analysis of the deposited data

How the results depend on the processing

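Each cell type had 1 library, so spread between libraries is not known. Numbers of peaks and covered lengths moved with the settings, while M2 peaks outnumbered THP-1 peaks and covered more of the cluster under each setting tried. At the stricter threshold, a -log10 q of 10 or more, the cluster kept 15 M2 peaks, against 3 THP-1 peaks over 2.07 kb. Widening the stretch by 20 kb on each side gave 10 THP-1 peaks over 7.51 kb, and the ratio of covered length was 7.22. With the stretch narrowed to 10 kb outside the first and last gene position M2 coverage was 30.6 kb and the ratio 8.29. Joining peaks within 1 kb left 3 THP-1 peaks. In lists of 31444 peaks each, 14 M2 peaks fell in the cluster. Without the widest M2 peak, a setting added after the data were seen, M2 coverage was 31.9 kb and the ratio 8.66. Within 2 kb, 3 genes had an M2 peak. Shared peaks, under a 50% overlap, a 1 kb distance or the stricter q, were 1 in M2 and 3 or 4 in THP-1 cells. Depth limits what was called: absent peaks may hold signal under the threshold.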
